A study of Mus musculus with 12 samples.

Results

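The unfolded protein response (UPR) and secretory genes described here are 39 genes given by name, taken from the rows of 12 gene count tables whose identifiers map to those symbols. All 39 were among the 50686 genes counted, and all 39 were among the 17754 genes with enough counts to be tested, so no member was lost to the filter on low counts. By role they fall into 4 stress sensors, 2 outputs of the stress response, 9 genes of the Hsp70 chaperone system of the endoplasmic reticulum (ER), 5 lectin chaperones and disulphide isomerases, 8 genes of ER-associated degradation, 7 translocon genes and 4 subunits of the signal peptidase.

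The ER is where antibody and membrane proteins are threaded through a membrane channel, trimmed, folded and checked. When unfolded protein builds up, the sensors IRE1 (Ern1), PERK (Eif2ak3) and ATF6 signal to the nucleus: IRE1 splices the messenger of Xbp1, PERK slows translation and lets ATF4 be made, and ATF6 is cut into an active transcription factor. Plasma cells enlarge the whole secretory apparatus through XBP1, and Blimp1 (Prdm1), the transcription factor that drives plasma cell differentiation, acts upstream of Xbp1 in that programme.

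RNA came from B220+ reporter-positive B cells sorted from mouse spleens, 1 mouse per library. The 6 pBIC mice had the genotype p53F/F Blimp1F/F IKK2castopF/stopF Cg1Cre/+ and the 3 BIC mice the genotype Blimp1F/F IKK2castopF/stopF Cg1Cre/+, and in both the sorted cells were GFP-positive. The 3 YC mice, labelled as normal controls, had the genotype YFPstopF/+ Cg1Cre/+ and their sorted cells were YFP-positive. All 3 groups carried the Cg1Cre allele, a Cre recombinase driven from the IgG1 constant-region gene, which limits recombination to B cells that transcribe that gene. F marks alleles flanked by recombination sites, and IKK2castop is a constitutively active form of the kinase IKK2 (gene Ikbkb) behind a stop cassette. BIC and pBIC are mouse models of diffuse large B-cell lymphoma of the activated B-cell kind. Loss of Blimp1 is known to stop B cells from becoming plasma cells, and plasma cells carry little B220, so the B220+ gate would leave most of them out in all 3 groups. Age, strain and sex were not given in the labels.

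Total counts ran from 33127283 to 47067627 per library. Levels are given as CPM, counts scaled to the library total with TMM factors, and as RPKM, which also divides by exon length, where genes are compared with each other. The level of Trp53, which encodes p53, was 16.2 to 32 CPM with a median of 24.1 in pBIC, against 149, 72.1 and 209 CPM in BIC and 137, 140.3 and 147 CPM in YC. It fell in pBIC against YC (edgeR log2 fold change -2.58, SE 0.27 and adjusted p 0.000191) and against BIC (edgeR log2 fold change -2.59, SE 0.27 and adjusted p 0.000583), and the pBIC libraries lay below all others. Ikbkb stood at 453 to 510.2 CPM with a median of 495 in pBIC and 381, 426 and 538 CPM in BIC, against 249, 245 and 217 CPM in YC, and it rose in pBIC (edgeR log2 fold change 1.04, SE 0.14 and adjusted p 0.000722) and in BIC (edgeR log2 fold change 0.92, SE 0.16 and adjusted p 0.00609). The summed level of 8 B cell markers was 2742 to 7985 CPM in pBIC, 9848 to 10340.1 CPM in BIC and 9153 to 10730.1 CPM in YC. Of these markers 3 fell in pBIC against YC, beside 10.2% of all genes called lower, and their part in the results was not tested. YC 1 stood apart within YC in its neutrophil and erythroid markers, and BIC 3 within BIC in its low neutrophil markers, with the values given beside the results they touch. Xist stood at 1491 to 2633 CPM in pBIC 2, 4 and 5 and at 1679.98 to 1828 CPM in all 3 BIC libraries, against at most 5.13 CPM in YC and in the other 3 pBIC libraries, so BIC genotype and sex-linked expression cannot be told apart in BIC against YC. In these sorted populations, fewer cells of a type and less RNA per cell cannot be told apart either.

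The 39 genes were expressed over a wide range. Group means ran from 3.52 RPKM (Creb3l2) to 273.9 RPKM (Ppp1r15a) in pBIC, from 7.47 RPKM (Derl2) to 606 RPKM (Pdia4) in BIC and from 1.92 RPKM (Ern1) to 262 RPKM (Hspa5) in YC, with medians of 44.8, 34.4 and 32.5 RPKM over the genes. Per length, the most abundant chaperone messenger was that of Hspa5, which encodes BiP, the Hsp70 of the ER, in pBIC (261 ± 87.4 RPKM, SD, n = 6) and in YC (262 ± 80.5 RPKM, n = 3), while in BIC the messenger of the disulphide isomerase Pdia4 (606 ± 89.9 RPKM, n = 3) stood above that of Hspa5 (177 ± 51.9 RPKM). In YC the Pdia4 level was 82.6 ± 7.65 RPKM, within the range of the other isomerases Pdia3 (117 ± 8.26 RPKM) and Pdia6 (52.8 ± 2.88 RPKM). The spread between mice also differed by group: the median SD of log2 CPM over the 39 genes was 0.572 in pBIC, 0.410 in BIC and 0.143 in YC, beside 0.594, 0.336 and 0.267 over all genes tested.

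Promoters of many UPR genes carry ER stress elements, short motifs bound by ATF6 and XBP1 with the CCAAT factor NF-Y. The RefSeq promoter windows of GRCm38.p6 matched 31 of the 39 genes, and the 250 bases before the annotated start were searched on both strands. The ER stress element (ERSE), which is CCAAT, 9 bases of any kind and CCACG, stood before 9 of the 31 genes, namely Hspa5, Calr, Canx, Derl3, Hsp90b1, Pdia6, Dnajc3, Creld2 and Syvn1, against 0.113% of all 32851 windows. Of the 11320 tested genes with a window, 19 (0.168%) carried an ERSE, with these 9 among them. Hsp90b1 carried 2. The related ERSE-II, which is ATTGG, 1 base of any kind and CCACG, stood before Herpud1 and in 0.0304% of all windows. The UPR element core TGACGTGG was found before 0 of the 31 genes and in 0.563% of all windows. Over the tested genes with a window, the shares were 0.053% for ERSE-II and 0.822% for the UPR element. All 3 motifs hold the letters CCACG or their complement, so matches can share bases. Atf6, Derl1, Hyou1, Manf, Sec11c, Sec61a1, Spcs3 and Ssr2 had no window in the table. Shown are the elements of Hspa5, the textbook ERSE gene, of Canx and Syvn1, which passed a test in at least 1 comparison, and of Hsp90b1 and Herpud1 for the duplicate and the variant element. Each is written 5′ to 3′ on the strand of the gene, with the element in capitals and 12 flanking bases on each side.
Hspa5 (chr2:34772013-34772055, GRCm38.p6, plus strand): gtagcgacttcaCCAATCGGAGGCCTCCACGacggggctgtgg
Canx (chr11:50325788-50325830, GRCm38.p6, minus strand): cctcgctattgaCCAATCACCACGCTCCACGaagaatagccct
Syvn1 (chr19:6046520-6046562, GRCm38.p6, plus strand): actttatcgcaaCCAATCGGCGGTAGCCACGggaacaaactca
Hsp90b1 nearer (chr10:86705521-86705563, GRCm38.p6, minus strand): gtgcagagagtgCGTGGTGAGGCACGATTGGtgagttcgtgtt
Hsp90b1 farther (chr10:86705626-86705668, GRCm38.p6, minus strand): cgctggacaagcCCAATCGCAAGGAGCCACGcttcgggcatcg
Herpud1 (chr8:94386365-94386399, GRCm38.p6, plus strand): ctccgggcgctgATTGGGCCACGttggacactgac
In Hspa5 the last base of the element lay 47 bases before the start, in Syvn1 26, in Canx 127 and in Herpud1 42. The Hsp90b1 elements ended 89 and 194 bases before the start, the nearer one in reverse orientation.

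**Figure D1:**
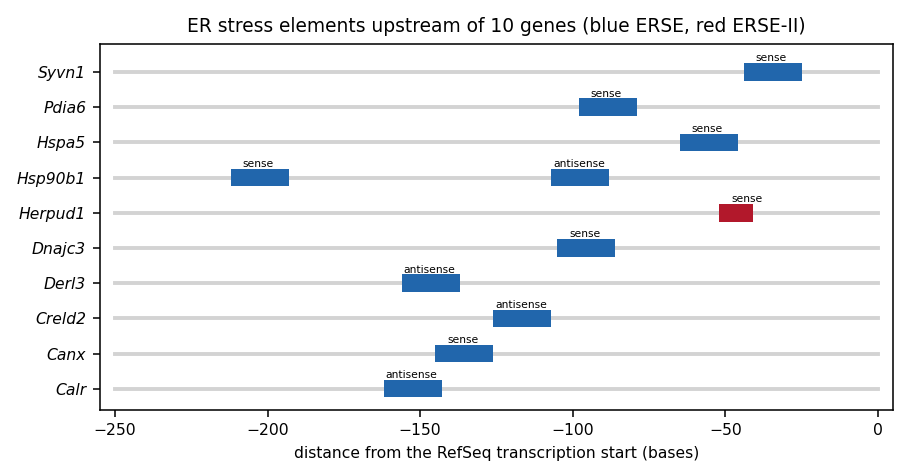
Position of the ER stress elements (blocks, with orientation relative to the gene) in the 250 bases before the RefSeq start of the 10 genes that hold one. Blue is ERSE and red is ERSE-II, and Hsp90b1 holds 2 elements.

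Of the 10 genes with ERSE or ERSE-II, 1 rose (Canx) and 1 fell (Syvn1) in pBIC against YC, beside 11.8% of all genes tested called higher and 10.2% called lower. They gave log2 fold changes from -0.97 to 1.08 and a median of 0.25. The 21 matched genes without one had 5 rises and 1 fall and a median of 0.52. In BIC against YC the medians were -0.20 with an element and 0.42 without, and in pBIC against BIC they were 0.29 and 0.18. The difference between the sets was not tested.

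A gene was called, and is said to have risen or fallen, at an edgeR adjusted p under 0.05 over all 17754 genes. In BIC against YC 3 of the 39 rose, Pdia4, Spcs3 and Sec11c, where 3.9% of all genes tested were called higher, 4.97% lower and 8.88% in either direction. In fits of all 12 libraries the count of members that fell was 0 by edgeR and by limma-voom and 2 by DESeq2, with 3 lower at an unadjusted p under 0.05. With the compared groups alone edgeR called 13 members, 10 higher and 3 lower. With a block for replicate number, on replicates 1 to 3, it called 6, 4 higher and 2 lower. In BIC 26 of the 39 fold changes were positive and the median was 0.30 on the log2 scale, against 0.0070 over all genes tested. With a term for Xist in the model, 18 of the 39 were positive and the median was -0.07, against -0.02 over all genes. All BIC libraries and no YC library were above the Xist limit of 100 CPM. In each comparison the term was therefore estimated from pBIC alone, as pBIC 2, 4 and 5 against pBIC 1, 3 and 6. It cannot separate Xist from other differences between those mice, and pBIC 2 and pBIC 5 were high for several members. The libraries of BIC and YC did not overlap for 13 members that were higher and 5 that were lower in BIC, beside 21.9% and 23.2% of all genes. The count of rises became 5 without pBIC 3 and 9 calls (7 up, 2 down) with DESeq2. With the Xist term 2 rose, Pdia4 and Derl1.

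In pBIC against YC 9 members rose and 2 fell, where 11.8% of all genes tested were called higher, 10.2% lower and 22% in either direction. The rises were Ssr2, Canx, Spcs2, Spcs1, Pdia4, Sec61b, Ssr3, Sec11c and Spcs3, and the falls were Syvn1 and Eif2ak3. Positive fold changes were seen for 30 of the 39, with a median of 0.52 against 0.10 over all genes, and with the Xist term 25 were positive with a median of 0.15. Groups did not overlap for 8 members higher and 2 lower in pBIC, beside 12.9% and 13.2% of all genes. The falls of Syvn1 and Eif2ak3 held in each alternative run. The number of rises depended on single libraries: 0 rose and 2 fell without YC 1 or without YC 2, 3 rose and 2 fell without YC 3, and 5 rose and 2 fell without pBIC 2. With a term for Xist in the model 4 rose and 2 fell: Ssr2, Canx, Pdia4, Syvn1 and Eif2ak3 were called as before, the other 6 calls were lost and Derl1 rose.

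In pBIC against BIC 1 member rose, Ssr2, and 6 fell, Creb3l2, Syvn1, Edem2, Pdia4, Spcs3 and Derl2, where 10.9% of all genes tested were called higher, 8.78% lower and 19.7% in either direction. The median log2 fold change was 0.21, against 0.09 over all genes, and 25 of the 39 were positive. Groups did not overlap for 1 member higher and 3 lower, beside 11.7% and 9.9% of all genes. The 3 comparisons share libraries, so their calls are not independent: over all of them 14 members were called at least once and 25 in none. Without BIC 1 or without BIC 2 the count of calls was 0, and it was 1 without YC 2, 3 without YC 1, YC 3, pBIC 2, pBIC 3 or pBIC 4 and 4 without BIC 3. With the compared groups alone it was 0. The direction of the calls depended on the Xist term: with it 3 members rose, Ssr2, Sdf2l1 and Hyou1, and 2 fell, Pdia4 and Edem1. Rises then made up 60% of the calls, against 14.3% without it, and Ssr2 and Pdia4 were the 2 members called both ways.

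**Figure D2:**
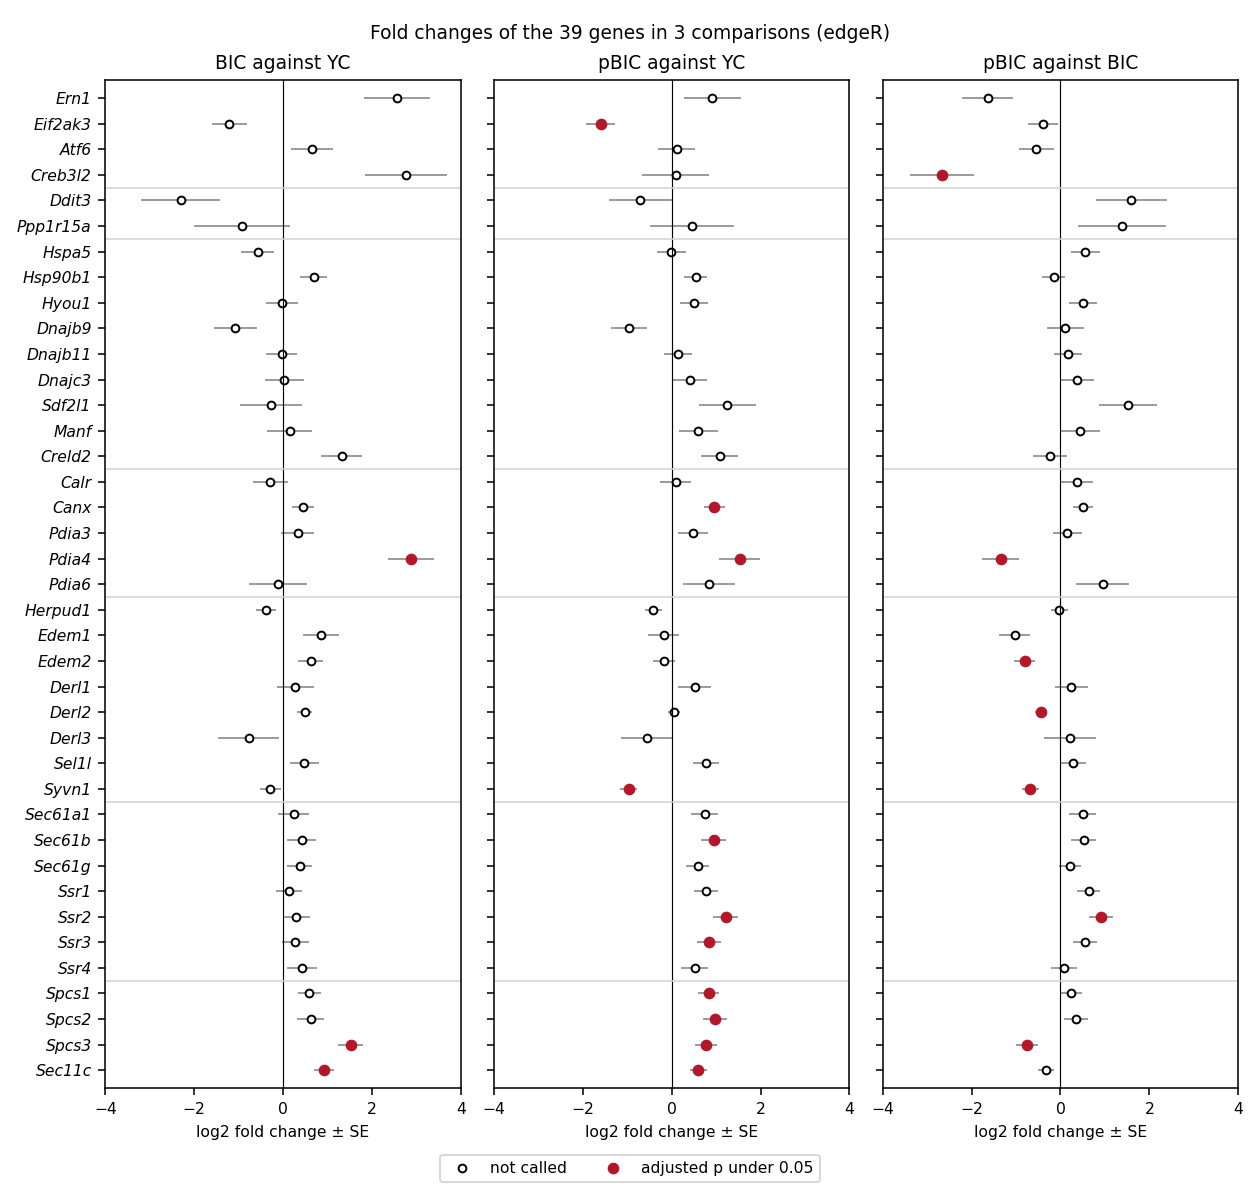
Log2 fold change (points) with its SE (bars) of each of the 39 genes in the 3 comparisons, each in its own panel, with genes in order of role. Filled points are the 3, 11 and 7 genes called by edgeR at an adjusted p under 0.05.

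Of the sensors, Eif2ak3 fell in pBIC and Creb3l2 was lower in pBIC than in BIC. Eif2ak3 (ENSMUSG00000031668.14, chromosome 6, 70844515 to 70905245, plus strand, GRCm38) encodes PERK, the kinase that slows translation under ER stress. Its level was 39.4 to 116 CPM with a median of 55.3 in pBIC and 123, 88.4 and 63.1 CPM in BIC, against 199.95, 207 and 225 CPM in YC. All 9 pBIC and BIC libraries lay below the YC libraries. It fell in pBIC against YC (edgeR log2 fold change -1.60, SE 0.33 and adjusted p 0.00577), and in BIC it gave -1.21 ± 0.40 without passing the test (edgeR adjusted p = 0.0859). Under some other settings, among them DESeq2 and the compared groups alone, Eif2ak3 was called lower in BIC against YC (adjusted p down to 0.011). Creb3l2 (ENSMUSG00000038648.5, chromosome 6, 37327255 to 37442146, minus strand) encodes an ER-tethered transcription factor related to ATF6. It stood at 1.99 to 47.6 CPM with a median of 24.7 in pBIC, 244, 212 and 35.9 CPM in BIC and 19.2, 28.6 and 24.3 CPM in YC. BIC 1 and BIC 2 were far above every other library, and BIC 3 lay within the pBIC range. It fell in pBIC against BIC (edgeR log2 fold change -2.68, SE 0.72 and adjusted p 0.0237), a call lost without BIC 1 or BIC 2 (edgeR adjusted p reaching 0.108) and also with no filter on low counts, with the compared groups alone and with the Xist term (adjusted p reaching 0.0914). It did not pass in BIC against YC (2.77 ± 0.92, edgeR adjusted p = 0.0842). It was called higher there with DESeq2 and with the compared groups alone (adjusted p down to 0.00956), and without 1 of the libraries (edgeR adjusted p = 0.0268).

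Ern1, which encodes the XBP1-splicing sensor IRE1, showed the same split within BIC and is given in full because its values were seen to stand out. Its level was 12.3 to 62.7 CPM with a median of 23.9 in pBIC, 131, 128 and 17.9 CPM in BIC and 17.6, 14.4 and 15.1 CPM in YC. BIC 3 was just above YC while BIC 1 and BIC 2 were higher than any pBIC library. The fold change of BIC over YC missed the threshold (edgeR log2 fold change 2.56, SE 0.74 and adjusted p 0.0521). It was called without 4 of the libraries in turn and under some other settings, among them DESeq2. With 1 library left out the edgeR adjusted p ran from 0.0183 to 0.163, and under the other settings the adjusted p reached 0.389. Atf6, the third sensor, gave 0.65 ± 0.47 in BIC against YC and 0.11 ± 0.41 in pBIC against YC, neither called (edgeR adjusted p = 0.418 and 0.871). Of the 10 other UPR regulators listed, 2 rose and 1, Xbp1, fell in pBIC against YC, beside 11.8% of all genes tested called higher and 10.2% lower. The rises were those of the IRE1-pathway RNA ligase Rtcb (edgeR log2 fold change 0.73, SE 0.20 and adjusted p 0.0214) and the PERK substrate Eif2s1 (edgeR log2 fold change 0.87, SE 0.25 and adjusted p 0.0254). The Rtcb call was lost without YC 1 or YC 2 and the Eif2s1 call without any 1 of the YC libraries (edgeR adjusted p reaching 0.107 and 0.102). Both were also lost with the Xist term and with pBIC 2 and pBIC 5 left out (edgeR adjusted p up to 0.0561 and 0.0969). The same genes rose in pBIC against BIC, Eif2s1 by 0.98 ± 0.25 and Rtcb by 0.64 ± 0.20 (edgeR adjusted p = 0.0178 and 0.042). The first was lost without BIC 1 or BIC 2 (edgeR adjusted p reaching 0.0997). The second was lost without YC 2, YC 3, any 1 BIC library, pBIC 2, pBIC 3, pBIC 5 or pBIC 6 (edgeR adjusted p reaching 0.189) and with no filter on low counts, with the compared groups alone, with the Xist term, with upper-quartile factors and with pBIC 2 and pBIC 5 left out (adjusted p reaching 0.121).

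Both stress outputs varied more within pBIC than within BIC or YC. Ddit3, which encodes the stress factor CHOP, had 12.8 to 194 CPM with a median of 30.6 in pBIC and 12.6, 33.4 and 20.5 CPM in BIC, against 153, 93.8 and 80.4 CPM in YC. The BIC libraries lay below YC, and pBIC 1 (110.4 CPM) and pBIC 6 (194 CPM) stood within or above the YC range while the other 4 pBIC libraries lay below it. The log2 fold change was -0.70 ± 0.72 in pBIC and -2.30 ± 0.89 in BIC against YC, with no call (edgeR adjusted p = 0.511 and 0.128). In BIC against YC it was called lower with DESeq2 and with the compared groups alone (adjusted p down to 0.0088). Ddit3 overlaps Mars on the other strand and the counts used no strand, so reads of the 2 genes cannot be told apart where they overlap. Ppp1r15a, which encodes GADD34, the phosphatase subunit that restarts translation after PERK signalling, ran from 119 to 3019 CPM with a median of 245 in pBIC, against 138, 459 and 334 CPM in BIC and 674, 501 and 588 CPM in YC. The same libraries, pBIC 6 (3019 CPM) and pBIC 1 (1060.4 CPM), were the highest of all 12. The stress factor Atf3, an ATF4 target, was also highest in pBIC 6 (1026 CPM) and pBIC 1 (395 CPM), against 62.6 to 117 CPM in YC.

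None of the 9 genes of the Hsp70 system passed the edgeR test, and several differed widely between pBIC mice. Of the 9 genes the edgeR count of calls was 0 in each comparison, with 2 higher and 1 lower at an unadjusted p under 0.05 in BIC against YC, 1 and 1 in pBIC against YC, and 1 and 0 in pBIC against BIC. DESeq2 called 1 higher in each comparison and limma-voom called 0. With the Xist term Sdf2l1 (2.13, edgeR adjusted p = 0.0217) and Hyou1 (0.88, edgeR adjusted p = 0.0403) rose in pBIC against BIC. Creld2, an ER protein with disulphide isomerase activity, came nearest. Its level was 41.4 to 189.7 CPM with a median of 117 in pBIC and 122, 167 and 103 CPM in BIC, against 60.03, 49.2 and 48 CPM in YC. BIC and YC did not overlap, and pBIC 3 and pBIC 4 lay in or below the YC range. The fold changes were 1.078 ± 0.41 in pBIC and 1.32 ± 0.46 in BIC against YC (edgeR adjusted p = 0.0806 and 0.0972). Both were called under some other settings, among them DESeq2, and in some runs without 1 library. Under the other settings the adjusted p went down to 0.0441 in pBIC and 0.00383 in BIC. Hspa5 itself (ENSMUSG00000026864.13, chromosome 2, 34771970 to 34777547, plus strand) had 529 to 1508 CPM with a median of 1199 in pBIC, 568, 992 and 681 CPM in BIC and 1496, 861 and 965 CPM in YC, and the groups overlapped (-0.01 ± 0.32 in pBIC against YC, edgeR adjusted p = 0.991).

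Several partners of BiP were high in pBIC 5 and pBIC 2. Sdf2l1, a BiP-complex protein, stood at 175 and 134 CPM in these libraries and at 19.9 CPM in pBIC 1, against 29.6 to 38.7 CPM in YC. The nucleotide exchange factor Hyou1 (409 and 292 CPM, against 151 to 199 CPM in YC), the co-chaperone Dnajc3 (239 and 183 CPM, against 93.7 to 95.2 CPM) and the secreted stress factor Manf (219 and 105 CPM, against 59.9 to 69.4 CPM) had the same pair of highest libraries within pBIC. Manf overlaps other genes, among them Dcaf1 on the other strand. The co-chaperone Dnajb11 was highest in the same pair (169 and 185 CPM, against 101 to 111 CPM in YC). Dnajb9, the co-chaperone that holds IRE1 inactive with BiP, went the other way, with its lowest level in pBIC 5 (26.1 CPM, against 119 to 176 CPM in YC). Its fold change of -0.97 ± 0.41 in pBIC against YC did not pass (edgeR adjusted p = 0.11). Hsp90b1, the ER form of Hsp90, ran from 379 to 913 CPM with a median of 617 in pBIC, 509 to 856 CPM in BIC and 387 to 502 CPM in YC, with no call.

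Pdia4 had the largest log2 fold change of the 39 genes in BIC against YC. Pdia4 (ENSMUSG00000025823.9, chromosome 6, 47796141 to 47813430, minus strand) encodes ERp72, a disulphide isomerase of the ER. Its level was 253 to 1287 CPM with a median of 399 in pBIC and 1669, 1458 and 1238 CPM in BIC, against 217, 196 and 181 CPM in YC. All 3 BIC libraries stood several-fold above every YC library, pBIC 1 (1287 CPM) lay inside the BIC range and the other 5 pBIC libraries lay between YC and BIC. In BIC against YC it rose by 7.34-fold (edgeR log2 fold change 2.88, SE 0.52 and adjusted p 0.00738) and kept the call in every alternative run. It rose in pBIC against YC (edgeR log2 fold change 1.53, SE 0.45 and adjusted p 0.0315) and fell in pBIC against BIC (edgeR log2 fold change -1.35, SE 0.41 and adjusted p 0.0378). The first of these calls was lost without any 1 of the YC libraries and the second without any 1 library other than pBIC 1 and pBIC 6 (edgeR adjusted p reaching 0.112 and 0.133). The first was also lost with no filter on low counts and with the compared groups alone (adjusted p reaching 0.0649). The second was also lost with no filter on low counts, with the compared groups alone and with pBIC 2 and pBIC 5 left out (adjusted p reaching 0.0972).

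Canx, which encodes the membrane lectin chaperone calnexin, rose in pBIC. It had 378 to 709 CPM with a median of 553 in pBIC and 343, 469 and 336 CPM in BIC, against 258, 281 and 301 CPM in YC, and all pBIC and BIC libraries lay above YC. The rise in pBIC against YC (edgeR log2 fold change 0.96, SE 0.23 and adjusted p 0.0123) was lost without YC 1 or YC 2 (edgeR adjusted p reaching 0.0613), and in BIC against YC it gave 0.45 ± 0.26 with no call (edgeR adjusted p = 0.298). Calr, its soluble homologue calreticulin, overlapped between groups, with 369.9 to 1149 CPM with a median of 606 in pBIC, 387 to 679.98 CPM in BIC and 499 to 846 CPM in YC. The isomerase Pdia3, which works with both lectins, ran from 278 to 872 CPM with a median of 412 in pBIC, with 332 to 619 CPM in BIC and 337 to 384 CPM in YC. Pdia6, an isomerase bound to BiP, ranged most widely within pBIC of these 5 genes, with 94.9 to 776 CPM with a median of 268 in pBIC, 135 to 256 CPM in BIC and 185 to 204 CPM in YC. Its highest libraries were again pBIC 5 and pBIC 2.

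**Figure D3:**
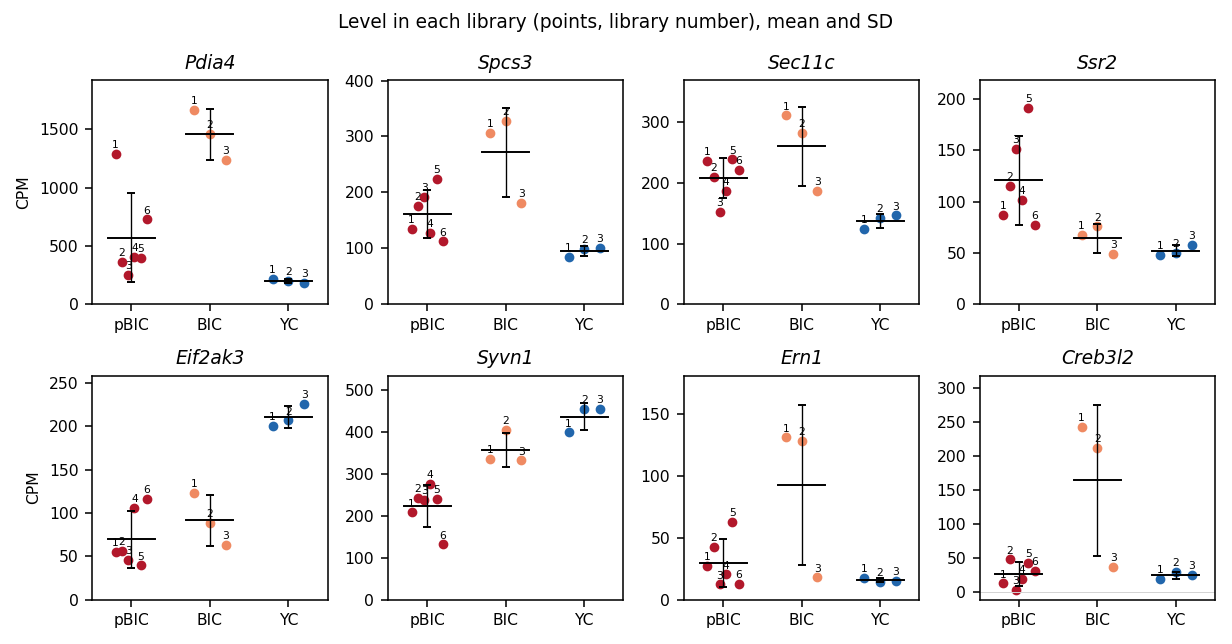
CPM of 8 genes in each pBIC, BIC and YC library (points with library number), with group mean (line) and SD (bar). Pdia4 is highest in BIC, Eif2ak3 and Syvn1 are lowest in pBIC, and Ern1 and Creb3l2 are high in BIC 1 and BIC 2 but not in BIC 3.

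In ER-associated degradation, which returns misfolded protein to the cytosol for the proteasome, Syvn1 fell in pBIC against both other groups. Syvn1 (ENSMUSG00000024807.17, chromosome 19, 6046576 to 6053712, plus strand) encodes HRD1, the ubiquitin ligase at the centre of the pathway. Its level was 132 to 276 CPM with a median of 239 in pBIC, against 336, 403 and 331 CPM in BIC and 398, 455 and 454 CPM in YC. All 6 pBIC libraries lay below the other 6, and pBIC 6 was the lowest. It fell in pBIC against YC (edgeR log2 fold change -0.97, SE 0.20 and adjusted p 0.00507) and against BIC (edgeR log2 fold change -0.68, SE 0.20 and adjusted p 0.0322), the second lost without YC 2 or any 1 BIC library (edgeR adjusted p reaching 0.123) and also with the compared groups alone and with the Xist term (adjusted p reaching 0.114). Syvn1 overlaps Mrpl49 on the other strand. Its partner Sel1l went the other way without a call, with 113 to 322 CPM with a median of 212 in pBIC, against 108 to 210.1 CPM in BIC and 114 to 133 CPM in YC (0.77 ± 0.29, edgeR adjusted p = 0.081).

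Edem2 and Derl2 also fell in pBIC against BIC. Edem2, which helps mark misfolded glycoproteins by trimming their mannose, had 35.5 to 68.9 CPM with a median of 49.5 in pBIC, against 97.6, 109 and 54.5 CPM in BIC (edgeR log2 fold change -0.80, SE 0.24 and adjusted p 0.0342) and 54.5, 54.4 and 60.7 CPM in YC. BIC 3 was at the YC level. Derl2, a membrane protein of the retrotranslocation channel, had 41.1 to 50.2 CPM with a median of 42.7 in pBIC, against 62.7, 61.5 and 56.2 CPM in BIC (edgeR log2 fold change -0.43, SE 0.14 and adjusted p 0.0472) and 37.9, 51.1 and 39.96 CPM in YC, with every pBIC library below every BIC library. The Edem2 call was lost without YC 2, BIC 1, BIC 2, pBIC 3 or pBIC 4 and the Derl2 call without any 1 library other than pBIC 1 and pBIC 5 (edgeR adjusted p reaching 0.167 and 0.162). The Edem2 call was also lost with the compared groups alone and with the Xist term (adjusted p reaching 0.11). The Derl2 call was also lost with no filter on low counts, with the compared groups alone, with the Xist term and with pBIC 2 and pBIC 5 left out (adjusted p reaching 0.116). Derl2 overlaps Mis12 on the other strand. Edem1, a relative of Edem2, had 135 to 456 CPM with a median of 249.8 in pBIC, against 526, 650.3 and 537 CPM in BIC and 301, 322 and 327 CPM in YC, with the BIC libraries above all others. It narrowly missed the threshold in pBIC against BIC (edgeR log2 fold change -1.03, SE 0.34 and adjusted p 0.0539) and was called with the Xist term (-1.43, edgeR adjusted p = 0.0219). In BIC against YC it gave 0.85 ± 0.41 with no call (edgeR adjusted p = 0.218). With the compared groups alone it was called there (edgeR adjusted p = 0.00346). The remaining members gave no call. Derl1 was highest in pBIC 6 (431 CPM, against 142 to 169.7 CPM in YC) and rose against YC only with the Xist term (by 1.001 in pBIC and 1.48 in BIC, edgeR adjusted p = 0.016 and 0.0286). Herpud1, a scaffold of the HRD1 complex, spanned 129 to 254 CPM with a median of 195 in pBIC, 195 to 218 CPM in BIC and 232 to 303 CPM in YC. Derl3, a derlin found mainly in secretory cells, ran from 9.37 to 55.5 CPM with a median of 17.4 in pBIC and stood at 22.1, 33.3 and 5.33 CPM in BIC, against 42.9, 30.4 and 30.6 CPM in YC, with BIC 3 the lowest of all 12 and pBIC 5 the highest.

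Of the 7 translocon genes 3 rose in pBIC against YC, beside 11.8% of all genes tested called higher. With a term for Xist 1 did, Ssr2 (Sec61b and Ssr3 gave an edgeR adjusted p of 0.132 and 0.147). The 7 fold changes were positive in all 3 comparisons, but with a term for Xist 6 of them, all but Sec61g, were negative in BIC against YC (log2 fold changes from -0.23 to -0.07), and Ssr4 changed sign in pBIC against BIC in 4 alternatives. The SEC61 channel carries new chains into the ER and the translocon-associated proteins SSR1 to SSR4 sit beside it. Ssr2 (ENSMUSG00000041355.13, chromosome 3, 88575876 to 88588419, plus strand) had 77.6 to 191 CPM with a median of 109 in pBIC, against 67.8, 75.8 and 48.8 CPM in BIC and 47.8, 50.4 and 57.9 CPM in YC, and the pBIC libraries lay above all others. It rose in pBIC against YC (edgeR log2 fold change 1.22, SE 0.28 and adjusted p 0.0104) and against BIC (edgeR log2 fold change 0.91, SE 0.28 and adjusted p 0.0393). Sec61b, the small beta subunit of the channel, had 74.7 to 163 CPM with a median of 101 in pBIC, against 79.8, 96.4 and 56 CPM in BIC and 42.1, 57.7 and 74.1 CPM in YC, and the lowest pBIC library lay just above the highest YC library. It rose in pBIC against YC (edgeR log2 fold change 0.94, SE 0.29 and adjusted p 0.0343). Ssr3 rose as well (edgeR log2 fold change 0.83, SE 0.27 and adjusted p 0.0465), although pBIC 1 (174 CPM) lay within the YC range of 149 to 174 CPM.

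The other 4 translocon genes had log2 fold changes from 0.52 (Ssr4) to 0.77 (Ssr1) in pBIC against YC, and Ssr1 and the channel subunit Sec61a1 did not overlap between these groups without being called (edgeR adjusted p = 0.0539 and 0.101). Ssr1 had 181 to 432 CPM with a median of 233 in pBIC, 137 to 191 CPM in BIC and 132 to 168 CPM in YC. Sec61a1, the pore itself, had 175 to 435 CPM with a median of 222 in pBIC, 109 to 236 CPM in BIC and 142 to 166 CPM in YC. Ssr4 ran from 56.2 to 131 CPM with a median of 81.2 in pBIC, 54.6 to 103 CPM in BIC and 56 to 63 CPM in YC. In each of these 3 genes pBIC 5 was the highest library. Sec61g, the small gamma subunit, gave 0.58 ± 0.25 (edgeR adjusted p = 0.118). In BIC against YC the 7 fold changes lay between 0.13 and 0.43, with overlapping groups for each and 0 calls by edgeR, DESeq2 or limma-voom, nor any at an unadjusted p under 0.05. The Ssr2 call against YC was lost without YC 1 or YC 2 (edgeR adjusted p reaching 0.0537), the Ssr2 call against BIC without any 1 YC or BIC library, pBIC 2 or pBIC 3 (up to 0.168), the Sec61b call without YC 1, YC 2, pBIC 2 or pBIC 5 (up to 0.152) and the Ssr3 call without any 1 YC library, BIC 1, BIC 2, pBIC 2, pBIC 3 or pBIC 5 (up to 0.154). Under other settings the Ssr2 call against BIC was lost with no filter on low counts, with the compared groups alone and with pBIC 2 and pBIC 5 left out (adjusted p reaching 0.0883) and the Sec61b call with the Xist term and with pBIC 2 and pBIC 5 left out (adjusted p reaching 0.132). The Ssr3 call was also lost with no filter on low counts, with the compared groups alone, with the Xist term, with RLE size factors, with limma-voom, with immunoglobulin genes left out and with pBIC 2 and pBIC 5 left out (adjusted p reaching 0.147).

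The signal peptidase, which clips the leader from chains entering the ER, was the role in which all 4 subunits rose in pBIC against YC, and 2 of them rose in BIC against YC. Of all genes tested 11.8% were called higher in the first comparison and 3.9% in the second. Spcs3 (ENSMUSG00000054408.9, chromosome 8, 54520433 to 54529998, minus strand) had 112 to 224 CPM with a median of 155 in pBIC and 307, 327 and 181 CPM in BIC, against 84.8, 98.6 and 100.5 CPM in YC. Every BIC and pBIC library lay above YC, and BIC 1 and BIC 2 were the highest. It rose by 2.87-fold in BIC (edgeR log2 fold change 1.52, SE 0.29 and adjusted p 0.00899) and by 1.7-fold in pBIC (edgeR log2 fold change 0.77, SE 0.25 and adjusted p 0.0479) against YC, and fell in pBIC against BIC (edgeR log2 fold change -0.75, SE 0.24 and adjusted p 0.045). Sec11c (ENSMUSG00000024516.12, chromosome 18, 65800549 to 65817665, plus strand), a catalytic subunit, had 153 to 239 CPM with a median of 216 in pBIC and 311, 282 and 186 CPM in BIC, against 124, 142 and 146 CPM in YC. Again no BIC or pBIC library reached down to YC. It rose in BIC (edgeR log2 fold change 0.92, SE 0.22 and adjusted p 0.0258) and in pBIC (edgeR log2 fold change 0.59, SE 0.20 and adjusted p 0.0468) against YC.

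The accessory subunits Spcs1 and Spcs2 rose in pBIC against YC and were not called in BIC against YC, and the difference between pBIC and BIC was not called for either (edgeR adjusted p = 0.486 and 0.369). Spcs2 had 107 to 272 CPM with a median of 188 in pBIC, against 147, 191 and 105 CPM in BIC and 79.5, 96.2 and 113 CPM in YC, with pBIC 4 inside the YC range (edgeR log2 fold change 0.98, SE 0.28 and adjusted p 0.0246). Spcs1 had 42.7 to 94.8 CPM with a median of 74.9 in pBIC, against 64.2, 64.9 and 55.9 CPM in BIC and 35, 41.4 and 46.5 CPM in YC, again with pBIC 4 inside the YC range (edgeR log2 fold change 0.83, SE 0.24 and adjusted p 0.0249). Spcs1 overlaps Glt8d1 on the other strand. Sec11a, the other catalytic subunit, which is not among the 39, rose in pBIC too (edgeR log2 fold change 0.55, SE 0.14 and adjusted p 0.0181), a call lost without any 1 YC library (edgeR adjusted p reaching 0.0837) and with no filter on low counts (adjusted p = 0.0787). The 4 subunit calls against YC in pBIC were each lost without YC 1, YC 2 or YC 3, and with a term for Xist in the model (edgeR adjusted p = 0.056 for Spcs1, 0.0548 for Spcs2, 0.137 for Spcs3 and 0.0984 for Sec11c). With that term Spcs3 gave 1.25 in BIC against YC (edgeR adjusted p = 0.0796) and Sec11c gave 0.86 (edgeR adjusted p = 0.122). The Sec11c call in BIC was also lost without any YC library, BIC 1 or BIC 2, and the Spcs3 call held without each library in turn. The pBIC calls against YC were also lost without BIC 1, BIC 2, pBIC 2 or pBIC 5 for Spcs3 and Sec11c, without pBIC 3 for Spcs3, and without pBIC 1 or pBIC 6 for Sec11c (edgeR adjusted p reaching 0.165 for Spcs3 and 0.169 for Sec11c). The fall of Spcs3 against BIC was lost without any 1 YC library, BIC 1, BIC 2, pBIC 1, pBIC 2, pBIC 4 or pBIC 6 (edgeR adjusted p reaching 0.184) and with the compared groups alone and with the Xist term (adjusted p reaching 0.135). The pBIC calls against YC were lost with pBIC 2 and pBIC 5 left out for each of the 4. Those of Spcs3 and Sec11c were also lost with RLE size factors, with no filter on low counts and with immunoglobulin genes left out, and that of Spcs3 with limma-voom and with the compared groups alone (adjusted p up to 0.137 for Spcs3 and 0.105 for Sec11c).

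**Figure D4:**
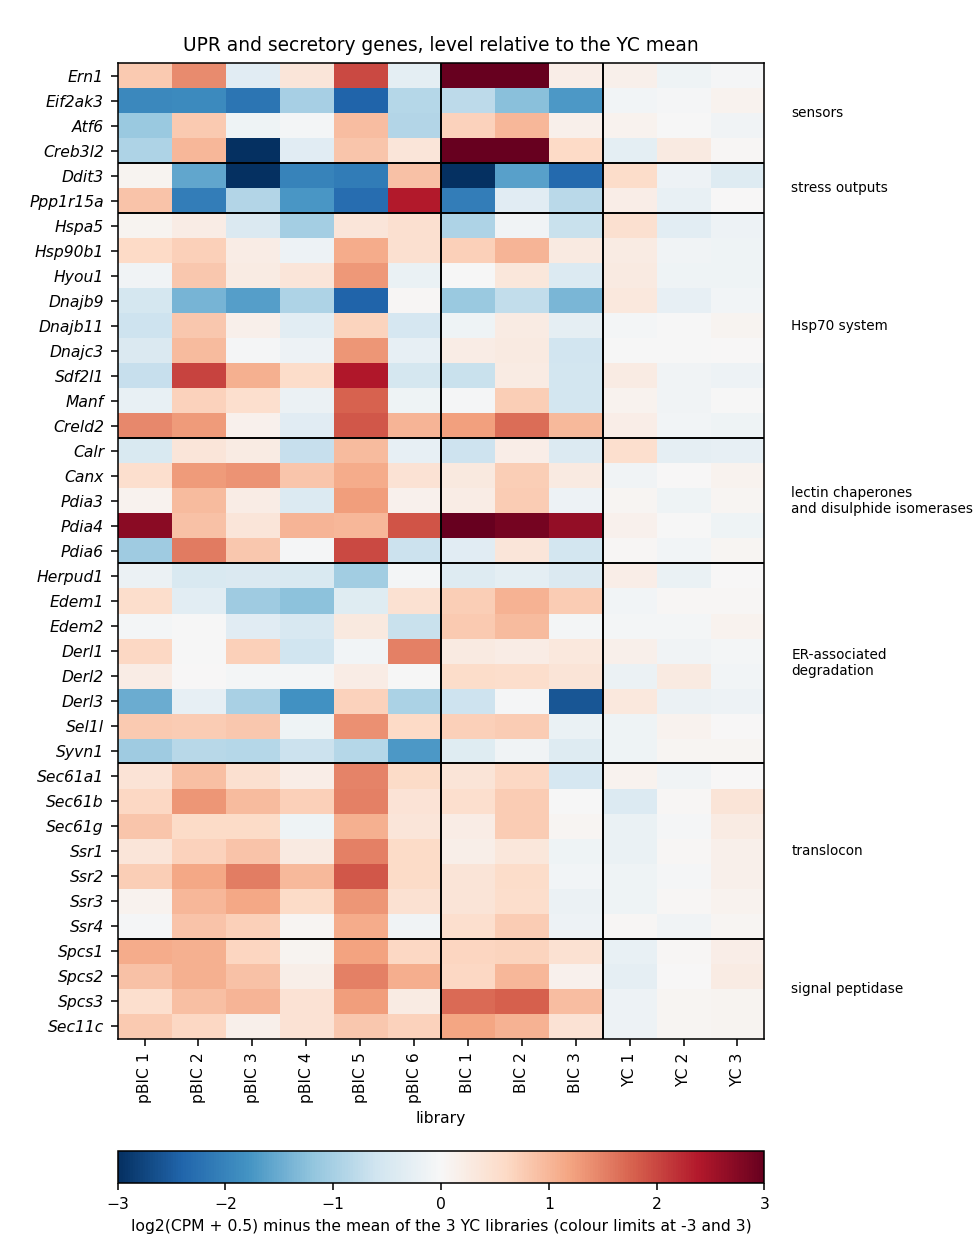
Log2(CPM + 0.5) of each of the 39 genes in each library minus the mean of the 3 YC libraries, with pBIC, BIC and YC from left to right and genes grouped by role. The signal peptidase rows are at or above the YC mean in all pBIC and BIC libraries, Syvn1 and Eif2ak3 are below it in the pBIC libraries, and pBIC 5 and BIC 2 are the highest columns of their groups.

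Within each lymphoma group, 1 library carried the highest level of most of these genes. BIC 2 was the highest BIC library for 32 of the 39 and BIC 3 the lowest for 32, while over all genes tested BIC 2 was highest for 32.6% and BIC 3 lowest for 33%. In pBIC, pBIC 5 was highest for 25 of the 39, against 16.4% of all genes, and pBIC 4 was lowest for 14, against 15.8%. In YC, YC 1 was highest for 18 and lowest for 18, against 36.9% and 44.5% of all genes. The ratio of the highest to the lowest library had a median over the 39 of 2.85 in pBIC, 1.75 in BIC and 1.21 in YC, and the widest was 25.3 in pBIC. Against the pBIC median, pBIC 5 was more than 1.5 times higher for 19 of the 39 and pBIC 4 more than 1.5 times lower for 11. The same counts were not made over all genes, so they cannot be set against a background share.

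Among the markers of other cells, the neutrophil, macrophage and dendritic cell sums were lowest in BIC 3 and highest in BIC 2, as were most members. The T cell, NK cell, erythroid, megakaryocyte, stromal and proliferation sums did not follow that order. The summed level of 10 neutrophil markers was 5.04 to 76 CPM in pBIC. It was 867 CPM in BIC 1, 1428 CPM in BIC 2 and 55.8 CPM in BIC 3, led by S100a9, and 1.91 to 266 CPM in YC. In no group was one of these markers at 0 in every library. Of the 10, 9 fell in pBIC against BIC, beside 8.78% of all genes, and 1 rose in BIC against YC, beside 3.9%. The sum of 11 macrophage and monocyte markers was 17.6 to 375 CPM in pBIC, 279, 288 and 185 CPM in BIC and 48.3 to 96.4 CPM in YC. Of these 11, 10 had positive fold changes in BIC against YC, with a median of 2.61. By edgeR 1 rose and 1 fell, and by DESeq2 6 rose and 1 fell. The sum of 10 T cell markers was 26.3 to 62.7 CPM in pBIC, 159 to 172 CPM in BIC and 64.1 to 98.4 CPM in YC, with 9 of the 10 positive and 1 called in BIC against YC. The summed level of 15 proliferation genes was 2285 to 4287 CPM in pBIC, 656 to 1159 CPM in BIC and 2415 to 3528 CPM in YC, and all 15 fell in BIC against YC and all 15 rose in pBIC against BIC. The summed level of 8 erythroid markers was highest in pBIC 5 within pBIC (403 CPM) and in YC 1 within YC (555 CPM). Within pBIC, the B cell marker sum was lowest in pBIC 5 (2742 CPM) and next lowest in pBIC 2 (3984 CPM). The same libraries had the highest neutrophil sums (76 and 42.3 CPM) and NK cell sums (44.6 and 19.2 CPM) of pBIC. The macrophage and monocyte sum was highest in pBIC 6 (375 CPM). The part of these markers in the results was not tested. With pBIC 2 and pBIC 5 left out, a choice made after seeing these values, 5 members were called in pBIC against YC, 3 up and 2 down.

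**Figure D5:**
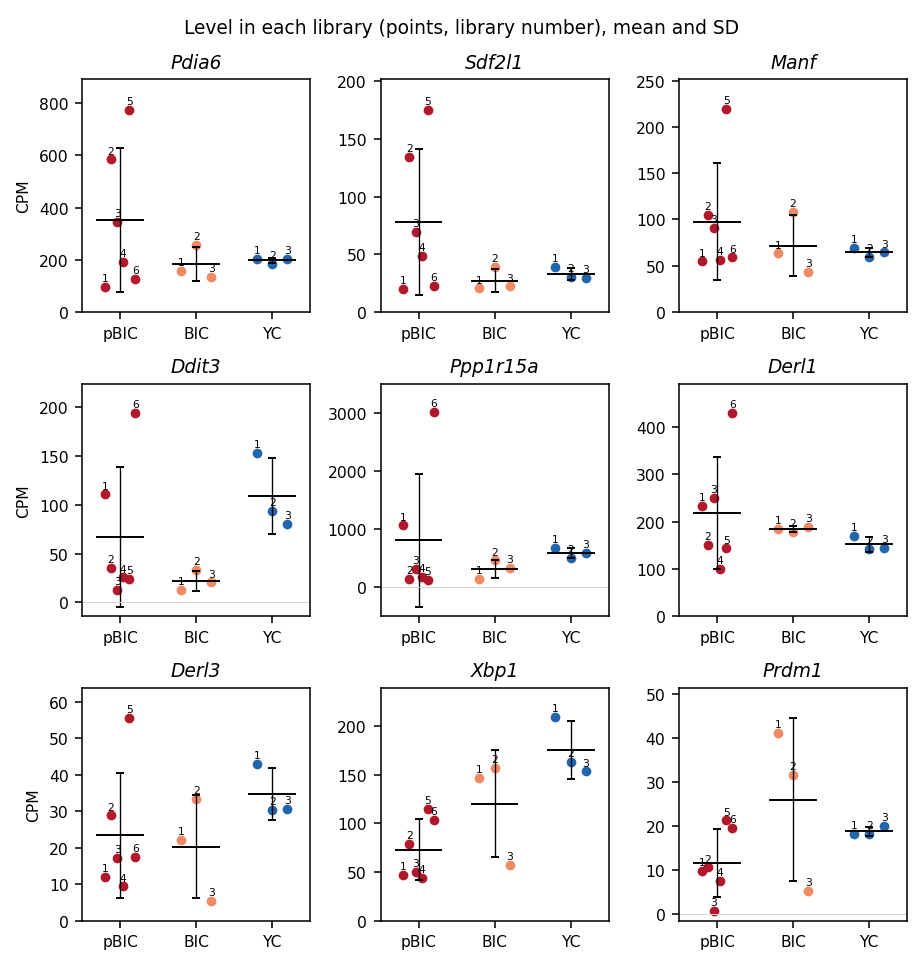
CPM of 9 genes in each pBIC, BIC and YC library (points with library number), with group mean (line) and SD (bar). Pdia6, Sdf2l1, Manf and Derl3 are highest in pBIC 5, Ddit3, Ppp1r15a and Derl1 in pBIC 6, and BIC 3 is the lowest BIC library for Xbp1 and Prdm1.

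Xbp1 and 4 other genes of the plasma cell list fell in pBIC against YC. Prdm1, which encodes Blimp1, had 0.718 to 21.3 CPM with a median of 10.2 in pBIC and 41.1, 31.6 and 5.33 CPM in BIC, against 18.2, 18.1 and 19.98 CPM in YC. The counts sum all exons, so messenger from alleles that lack the floxed part can still be counted, and no comparison was called (edgeR adjusted p = 0.528 in pBIC and 0.779 in BIC against YC). Xbp1, the central activator of secretory genes, had 43.8 to 115 CPM with a median of 64.3 in pBIC and 146, 157 and 57.4 CPM in BIC, against 209, 163 and 153 CPM in YC. All pBIC libraries lay below YC, and Xbp1 fell in pBIC against YC (edgeR log2 fold change -1.26, SE 0.36 and adjusted p 0.027), a call lost without any 1 of the YC libraries (edgeR adjusted p reaching 0.109). In BIC against YC it gave -0.54 ± 0.43 (edgeR adjusted p = 0.47). The counts do not separate spliced from unspliced Xbp1 messenger.

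Irf4, a factor needed for plasma cell fate, had 122 to 806 CPM with a median of 370.1 in pBIC and 262, 340.5 and 182 CPM in BIC, against 981, 652 and 513 CPM in YC, and was not called (-0.76 ± 0.44 in pBIC and -1.45 ± 0.53 in BIC against YC, edgeR adjusted p = 0.232 and 0.109). In BIC against YC it was called lower under some other settings, among them DESeq2 and the compared groups alone (adjusted p down to 0.0157). Of 17 plasma cell genes listed, 5 fell in pBIC against YC and 1 in BIC against YC, beside 10.2% and 4.97% of all genes called lower. Jchain, which encodes the chain that joins secreted IgM and IgA, had 0.663 to 64.5 CPM with a median of 1.61 in pBIC and 53.2, 5.99 and 8.53 CPM in BIC, against 589.8, 620.1 and 666 CPM in YC. It fell in pBIC (edgeR log2 fold change -5.63, SE 1.37 and adjusted p 0.0125), and every pBIC and BIC library lay below YC. Sdc1, the surface marker CD138 of plasma cells, fell in pBIC (edgeR log2 fold change -2.96, SE 0.68 and adjusted p 0.00955), as did Eaf2 (edgeR log2 fold change -3.31, SE 0.45 and adjusted p 0.000696) and Pou2af1 (edgeR log2 fold change -1.09, SE 0.32 and adjusted p 0.0279), and Eaf2 fell in BIC (edgeR log2 fold change -2.90, SE 0.58 and adjusted p 0.0111). The Jchain call was lost with no filter on low counts (adjusted p = 0.0556). The Pou2af1 call was lost without YC 2 or YC 3 (edgeR adjusted p reaching 0.105) and with the Xist term and with pBIC 2 and pBIC 5 left out (adjusted p reaching 0.09), and the Eaf2 call in BIC without BIC 1 (0.0522). The median log2 fold change of the list was -1.03 in pBIC and -0.54 in BIC against YC. In pBIC against BIC the count of calls was 0 by edgeR, DESeq2 and limma-voom, with 1 gene lower at an unadjusted p under 0.05.

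The pBIC library with the most members at their highest, pBIC 5, also had the highest Jchain (64.5 CPM), Prdm1 (21.3 CPM), Xbp1 (115 CPM) and Derl3 (55.5 CPM) of the 6. BIC 3, lowest in most members, was also lowest in its group for Prdm1 (5.33 CPM), Xbp1 (57.4 CPM) and Sdc1 (0.837 CPM). Jchain was lowest in BIC 2 instead. The summed level of the plasma cell list was 1825 CPM in pBIC 5, below pBIC 1 (2457 CPM), pBIC 4 (2389 CPM) and pBIC 6 (2148 CPM). The mean of log2(CPM + 0.5) over the list, relative to the 12-library mean, was highest in pBIC 5 within pBIC (0.17). In BIC 3 the sum (1547 CPM) was the lowest of BIC. Of 10 B cell genes that plasma cells switch off, 7 fell in pBIC against YC, beside 10.2% of all genes, with the lowest p for the germinal centre repressor Bcl6 (log2 fold change -5.88 ± 0.78 SE), the receptor Cd22 (-1.37 ± 0.23) and the class II regulator Ciita (-2.34 ± 0.41). Bcl6 also fell in BIC against YC (log2 fold change -4.95 ± 1.001 SE), a call lost without BIC 1 or BIC 2 (edgeR adjusted p reaching 0.0592). Against BIC, 4 of them fell in pBIC, beside 8.78% of all genes called lower. The lowest p values were those of Ms4a1, which encodes CD20 (log2 fold change -1.72 ± 0.42 SE), the transcription factor Spib (-1.09 ± 0.28) and Ciita (-1.53 ± 0.41). The calls of Ms4a1 and Spib were lost without BIC 1 (edgeR adjusted p = 0.0539 and 0.0963). That of Ciita was lost without BIC 1 or BIC 2 (edgeR adjusted p reaching 0.12) and with the compared groups alone and with the Xist term (adjusted p reaching 0.0783).

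In pBIC against BIC 8 of 19 ATF4 targets (42.1%) rose, where 10.9% of all genes tested were called higher. All 15 proliferation genes rose in the same comparison, and a link between the 2 lists was not tested. Atf4 had 249 to 587 CPM with a median of 291 in pBIC and 188, 371 and 368 CPM in BIC, against 644, 489 and 511 CPM in YC, with no call (edgeR adjusted p = 0.151 and 0.168). Of 19 ATF4 target genes tested, 2 fell in BIC against YC, beside 4.97% of all genes called lower. They were the serine synthesis enzyme Psat1 (edgeR log2 fold change -1.86, SE 0.44 and adjusted p 0.0234) and the cystathionine lyase Cth (edgeR log2 fold change -5.50, SE 0.95 and adjusted p 0.00572). In pBIC against YC 5 rose and 1 fell, beside 11.8% of all genes called higher and 10.2% lower. Among them were the rises of Phgdh, the first enzyme of serine synthesis (edgeR log2 fold change 1.99, SE 0.39 and adjusted p 0.00437), Mthfd2 of mitochondrial folate metabolism (edgeR log2 fold change 0.90, SE 0.20 and adjusted p 0.00784) and Gpt2 (edgeR log2 fold change 1.70, SE 0.49 and adjusted p 0.0268), and the fall of Cebpb (edgeR log2 fold change -1.99, SE 0.45 and adjusted p 0.00906). The Psat1 call was lost without YC 2, YC 3, BIC 1 or BIC 2, the Gpt2 call without any 1 of the YC libraries and the Cebpb call without YC 1 (edgeR adjusted p reaching 0.0966, 0.114 and 0.13). The Gpt2 call was also lost with the Xist term and with pBIC 2 and pBIC 5 left out (adjusted p reaching 0.0947). Against BIC, 8 rose in pBIC, with the lowest p for Mthfd2 (log2 fold change 1.44 ± 0.20 SE), Cth (6.32 ± 0.94) and Psat1 (2.74 ± 0.42). Cth was low, at 0.993 to 6.8 CPM with a median of 4.64 in pBIC. A fold change of that size puts BIC near the limit behind a count of 0, so the size of both Cth fold changes is uncertain. Trib3 and Chac1, also among the rises, had pBIC medians of 3.49 and 0.875 CPM. The calls of Mthfd2, Cth, Psat1, Asns and Phgdh held without each library in turn and under each other setting. The Slc7a5 call was lost without BIC 1 or BIC 2 (edgeR adjusted p reaching 0.0778). The Trib3 call was lost without any 1 YC library, any 1 BIC library, pBIC 1, pBIC 2 or pBIC 6 (edgeR adjusted p reaching 0.143) and with no filter on low counts, with the compared groups alone, with the Xist term, with limma-voom and with pBIC 2 and pBIC 5 left out (adjusted p reaching 0.0907). That of Chac1 was lost without any 1 YC library, any 1 BIC library, pBIC 1 or pBIC 6 (edgeR adjusted p reaching 0.147) and with no filter on low counts, with the compared groups alone, with the Xist term and with limma-voom (adjusted p reaching 0.158). The median log2 fold change of the list was -0.45 in BIC and 0.90 in pBIC against YC, and 1.44 in pBIC against BIC. Ddit3 and Ppp1r15a, the stress outputs among the members, were not among the called genes. Whether PERK signalling had a part in the ATF4 target levels was not tested.

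The oligosaccharyltransferase, which attaches sugars to chains as they pass the translocon, had 5 of its 12 genes rise in pBIC against YC, beside 11.8% of all genes. The lowest p values were those of the catalytic subunit Stt3a (edgeR log2 fold change 0.9996, SE 0.21 and adjusted p 0.00607), Ddost (edgeR log2 fold change 0.997, SE 0.22 and adjusted p 0.00811) and Rpn2 (edgeR log2 fold change 0.96, SE 0.22 and adjusted p 0.0086), and the other catalytic subunit, Stt3b, fell (edgeR log2 fold change -0.65, SE 0.15 and adjusted p 0.0101). Stt3a had 177 to 305 CPM with a median of 223 in pBIC, against 169, 212 and 121 CPM in BIC and 107, 115 and 121 CPM in YC. Stt3b had 259.7 to 351 CPM with a median of 303 in pBIC, against 244, 286 and 338 CPM in BIC and 525, 443 and 467 CPM in YC, and fell in BIC too (edgeR log2 fold change -0.73, SE 0.18 and adjusted p 0.0286). The Stt3b call was lost without YC 1 in pBIC and without any YC library, BIC 1 or BIC 2 in BIC (edgeR adjusted p reaching 0.0556 and 0.12), and the Rpn2 call without YC 2 (0.0505). In BIC the Stt3b call was also lost with no filter on low counts and with the Xist term (adjusted p reaching 0.107). The Rpn1 subunit rose in pBIC against BIC (edgeR log2 fold change 1.06, SE 0.35 and adjusted p 0.0492), a call lost without any 1 YC library, any 1 BIC library, pBIC 2, pBIC 3, pBIC 4 or pBIC 5 (edgeR adjusted p reaching 0.189) and with no filter on low counts, with the compared groups alone, with RLE size factors, with upper-quartile factors, with limma-voom and with pBIC 2 and pBIC 5 left out (adjusted p reaching 0.137). Of 13 genes of signal recognition and other translocation tested, 5 rose and 1 fell in pBIC against YC, beside 11.8% of all genes called higher and 10.2% lower. The signal recognition particle subunits Srp19 (edgeR log2 fold change 0.83, SE 0.16 and adjusted p 0.00369) and Srp68 (edgeR log2 fold change 0.92, SE 0.19 and adjusted p 0.00586) and the channel paralogue Sec61a2 (edgeR log2 fold change 0.88, SE 0.23 and adjusted p 0.0165) gave the lowest p of the rises. Sec62 fell (edgeR log2 fold change -0.47, SE 0.16 and adjusted p 0.0475). The Sec62 call was lost without any 1 library other than pBIC 6 (edgeR adjusted p reaching 0.223) and with no filter on low counts, with the compared groups alone, with the Xist term, with limma-voom and with pBIC 2 and pBIC 5 left out (adjusted p reaching 0.114). The Sec61a2 call was lost without any 1 YC library (edgeR adjusted p reaching 0.0744) and with no filter on low counts, with the Xist term and with pBIC 2 and pBIC 5 left out (adjusted p reaching 0.0622). Srp19 and Srp68 rose against BIC as well (log2 fold changes 0.59 ± 0.16 and 0.65 ± 0.19 SE). The Srp19 call against BIC was lost without any 1 BIC library (edgeR adjusted p reaching 0.0952) and with no filter on low counts and with pBIC 2 and pBIC 5 left out (adjusted p reaching 0.102). The Srp68 call against BIC was lost without YC 2, YC 3, any 1 BIC library or pBIC 3 (edgeR adjusted p reaching 0.149) and with no filter on low counts and with the compared groups alone (adjusted p reaching 0.0869). The medians of the oligosaccharyltransferase and signal recognition lists were 0.66 and 0.37 in pBIC against YC, against 0.10 over all genes tested.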

How the data were processed

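RNA from sorted splenic B cells of 12 mice was analysed from the deposited raw counts per gene. Per the file headers, the counts were made with featureCounts 1.5.0 over GENCODE M13 exons, with mates counted separately, without strand and without multi-mapping reads. The submitters' processing notes also name FastQC, STAR, edgeR and limma and the builds mm10 and GRCm38. Gene names came from GENCODE M21. Groups came from the sample titles. Total counts were 33127283 to 47067627 per library, and the upper limit behind a 0 (3 counts) equals 0.0637 to 0.0906 CPM, for counting error only.

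All 12 libraries entered 1 edgeR 4.0.16 quasi-likelihood fit (R 4.3.3) with TMM factors and the default expression filter (minimum count 10). P-values were Benjamini-Hochberg adjusted over 17754 genes, with a threshold of 0.05. The SE of a log2 fold change is its size divided by the square root of the F statistic. Alternatives used RLE or upper-quartile factors, DESeq2 1.42.0, limma-voom (limma 3.58.1), other filters, no immunoglobulin genes, the compared groups alone, a term for Xist above 100 CPM, a replicate block, and 1 library left out in turn. Replicates 1 to 3 without the block, and pBIC 2 and pBIC 5 left out, were chosen after seeing the data. The procedure was tested on simulated data.

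Members and gene lists were chosen with earlier results of these data known. The genes given with values were the called members, the member with the lowest p in each role, 6 regulators and up to 3 called genes per direction of each other list, by p, except 1 gene of another list that is not reported here. Ern1, the other uncalled members and the single-library values were added after their values were seen.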

Additional observations from a re-analysis of the deposited data

Results flagged for a closer look

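Among 45 genes examined in the 6 pBIC libraries, 3 had a library far from the others, measured as its gap to the nearest library over the whole range, where values above 0.625 stand out. Ppp1r15a reached 3019 CPM in pBIC 6, against 1060.4 CPM in the next library and a median of 245 CPM (ratio 0.675). Manf reached 219 CPM in pBIC 5, with 105 CPM in the next library and a median of 75.2 CPM (ratio 0.697). Ssr1 reached 432 CPM in pBIC 5, with 275 CPM in the next library and a median of 233 CPM (ratio 0.628). For values that follow a normal distribution, chance alone would give such a library in about 1 of 20 groups examined. The CPM values were not checked for that, so the rate may differ here. The Manf and Ssr1 values came from the same library, so they are not independent.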

How the results depend on the processing

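The calls of Pdia4 in BIC against YC, and of Syvn1 and Eif2ak3 in pBIC against YC, held in all alternatives run. Genes called in BIC against YC numbered 1576, against 3031 with DESeq2, 4602 with the compared groups alone and 563 to 1867 without 1 library (563 to 734 without any 1 YC library, BIC 1 or BIC 2). In pBIC against YC they numbered 3914 and 1904 to 4376 without 1 library (1904 to 2328 without any 1 YC library), and in pBIC against BIC 3496 and 1422 to 4134 (1422 to 2315 without any 1 BIC library). Members called in BIC against YC numbered 3, against 9 with DESeq2, 13 with the compared groups alone (10 higher and 3 lower), and 2 to 5 without 1 library. In pBIC against YC they numbered 11, against 7 with no filter on low counts, 6 with the Xist term, 5 with pBIC 2 and pBIC 5 left out, and 2 to 15 without 1 library. In pBIC against BIC they numbered 7, against 3 with no filter, 0 with the compared groups alone, 5 with the Xist term (60% of them rises, against 14.3%, and 2 shared with the 7), and 0 to 7 without 1 library. Higher calls made up 44% in BIC against YC and 54.8% with the Xist term, and 53.7% in pBIC against YC and 43% with limma-voom. The cause was not tested.

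The labels do not say whether replicate numbers mark shared batches. Deviations of same-numbered libraries had correlations of -0.0948 to 0.155, which cannot settle whether a batch was shared. With the replicate block on replicates 1 to 3 the members called numbered 6, 9 and 2, and on the same libraries without the block 6, 13 and 3, for BIC and then pBIC set against YC and last for pBIC set against BIC. Losses under the block are not given beside single calls. Among them were Pdia4 in pBIC against YC and Stt3b in BIC against YC.

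Of the gene results named, 110 values over 42 results took the other sign in some alternative. Each of these results was uncalled, and 0 were called with the other sign. Of the 109 uncalled gene results, 26 were called in some alternative. With a term for Xist the fold changes that took the other sign were in BIC against YC Atf6 -0.61, Ppp1r15a 2.43, Dnajc3 -1.04, Manf -0.74, Pdia3 -0.28, Herpud1 0.024, Sec61a1 -0.23, Sec61b -0.13, Ssr1 -0.18, Ssr2 -0.068, Ssr3 -0.090 and Ssr4 -0.070. For pBIC against YC Atf6 -0.65, Creb3l2 -0.68, Hspa5 0.054, Hyou1 -0.011, Dnajb11 -0.28, Dnajc3 -0.22, Calr -0.17, Pdia6 -0.073 and Edem1 0.14. For pBIC against BIC Ppp1r15a -1.11, Dnajb9 -0.41, Derl1 -0.48 and Atf4 -0.16. With pBIC 2 and pBIC 5 left out the fold changes that took the other sign were in BIC against YC Hyou1 0.012. For pBIC against YC Atf6 -0.48, Creb3l2 -0.60, Dnajb11 -0.29, Dnajc3 -0.20, Calr -0.29 and Pdia6 -0.056. For pBIC against BIC Dnajb11 -0.28, Dnajc3 -0.26, Manf -0.15, Calr -0.026, Pdia3 -0.32, Herpud1 0.075, Derl3 -0.56 and Ssr4 -0.25. With the replicate block the fold changes that took the other sign were in BIC against YC Dnajc3 -0.021, Prdm1 -0.23 and Trp53 -0.079. For pBIC against YC Atf6 -0.10, Creb3l2 -1.18 and Ppp1r15a -0.42. For pBIC against BIC Dnajb9 -0.13 and Herpud1 0.018. With replicates 1 to 3 and no block the fold changes that took the other sign were in pBIC against YC Creb3l2 -0.22 and Ppp1r15a -0.22. For pBIC against BIC Dnajb9 -0.057, Herpud1 0.027 and Derl3 -0.061. With limma-voom the fold changes that took the other sign were in BIC against YC Dnajc3 -0.018 and Trp53 -0.11. For pBIC against YC Atf6 -0.081, Creb3l2 -0.38 and Ppp1r15a -0.63. For pBIC against BIC Dnajb9 -0.078. With upper-quartile factors the fold changes that took the other sign were in BIC against YC Hyou1 0.018 and Dnajb11 0.0040. With the compared groups alone the fold changes that took the other sign were in BIC against YC Hyou1 0.0035. With no filter on low counts the fold changes that took the other sign were in BIC against YC Hyou1 0.012. In BIC against YC the lowest and highest values without 1 library were Hyou1 -0.18 to 0.19, Dnajb11 -0.16 to 0.12, Dnajc3 -0.081 to 0.30, Manf -0.23 to 0.45, Calr -0.52 to 0.013, Pdia6 -0.40 to 0.10, Prdm1 -0.020 to 0.996 and Trp53 -0.31 to 0.38. In pBIC against YC the lowest and highest values without 1 library were Atf6 -0.12 to 0.27, Creb3l2 -0.17 to 0.34, Ppp1r15a -0.69 to 0.68, Hspa5 -0.16 to 0.27, Dnajb11 -0.029 to 0.26, Calr -0.15 to 0.39 and Derl2 -0.033 to 0.20. In pBIC against BIC the lowest and highest values without 1 library were Hsp90b1 -0.35 to 0.0081, Dnajb9 -0.23 to 0.28, Dnajb11 -0.019 to 0.32, Pdia3 -0.060 to 0.40, Herpud1 -0.13 to 0.068, Derl1 -0.081 to 0.39, Derl3 -0.26 to 0.74, Ssr4 -0.15 to 0.27 and Atf4 -0.069 to 0.32. The cause was not tested. BIC and YC had 3 libraries each, and genotype and Xist cannot be told apart between them.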

Other observations

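The other lists of the secretory route had shares of called genes near that of all genes tested in pBIC against YC (22%). Of 30 genes of ER to Golgi transport, 20% were called, 5 that rose and 1 that fell. The rises had the lowest p for the cargo-cycling membrane protein Ergic1 (edgeR log2 fold change 1.18, SE 0.17 and adjusted p 0.001), the outer coat subunit Sec31a of transport vesicles leaving the ER (edgeR log2 fold change 0.75, SE 0.16 and adjusted p 0.00656) and the cargo receptor Tmed2 (edgeR log2 fold change 1.02, SE 0.26 and adjusted p 0.0172). Sec16a, which organises the sites where vesicles leave the ER, fell (edgeR log2 fold change -0.39, SE 0.13 and adjusted p 0.0468). Ergic1 also rose in BIC against YC (edgeR log2 fold change 1.06, SE 0.19 and adjusted p 0.00729). In pBIC against BIC the coat subunit Sec13 rose (edgeR log2 fold change 0.50, SE 0.15 and adjusted p 0.0359) and Arfgap3 fell (edgeR log2 fold change -0.99, SE 0.28 and adjusted p 0.0292). In pBIC against YC the Tmed2 call was lost without any 1 YC library and the Sec16a call without any 1 library other than pBIC 1 (edgeR adjusted p reaching 0.0769 and 0.175). Against BIC the Sec13 call was lost without YC 2, YC 3, any 1 BIC library, pBIC 2, pBIC 3, pBIC 5 or pBIC 6, and the Arfgap3 call without BIC 1 or BIC 2 (edgeR adjusted p reaching 0.142 and 0.128). Under other settings the Tmed2 call was lost with the Xist term (adjusted p = 0.067). The Sec16a call was lost with no filter on low counts, with the compared groups alone, with the Xist term and with pBIC 2 and pBIC 5 left out (adjusted p reaching 0.126). That of Sec13 was lost with no filter on low counts, with the compared groups alone, with the Xist term and with pBIC 2 and pBIC 5 left out (adjusted p reaching 0.147) and that of Arfgap3 with the compared groups alone and with the Xist term (adjusted p reaching 0.064).

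Of 22 other folding enzymes of the ER, 27.3% were called in pBIC against YC, beside 22% of all genes, with 4 that rose and 2 that fell. Sil1, a nucleotide exchange factor of BiP, rose in pBIC (edgeR log2 fold change 1.22, SE 0.24 and adjusted p 0.00392) and in BIC (edgeR log2 fold change 1.37, SE 0.26 and adjusted p 0.00899) against YC, and the oxidase Ero1l (edgeR log2 fold change 1.47, SE 0.34 and adjusted p 0.0101) and the prolyl isomerase Ppib (edgeR log2 fold change 0.71, SE 0.17 and adjusted p 0.0108) rose in pBIC. Txndc11 (edgeR log2 fold change -0.99, SE 0.27 and adjusted p 0.0205) and Erp44 (edgeR log2 fold change -0.86, SE 0.25 and adjusted p 0.0286) fell. Fkbp11, of the same enzyme class as Ppib, rose in pBIC against BIC (edgeR log2 fold change 3.92, SE 1.18 and adjusted p 0.0371). Its level was low and uneven in pBIC, at 1.28 to 35.1 CPM with a median of 3.4. Of 18 other genes of ER-associated degradation, 22.2% were called in pBIC against YC, 2 that rose and 2 that fell, beside 22% of all genes. Vcp, the ATPase that pulls proteins from the ER membrane (edgeR log2 fold change 0.75, SE 0.16 and adjusted p 0.00605), and the ubiquitin-conjugating enzyme Ube2j2 (edgeR log2 fold change 0.47, SE 0.12 and adjusted p 0.017) rose, and Herpud2, a relative of Herpud1, fell (edgeR log2 fold change -0.57, SE 0.18 and adjusted p 0.0397). Against BIC, Ube2j2 (log2 fold change 0.74 ± 0.12 SE) and Vcp (0.53 ± 0.15) rose in pBIC, and the Vcp call was lost without YC 2, YC 3, any 1 BIC library or pBIC 2 (edgeR adjusted p reaching 0.157) and with no filter on low counts, with the compared groups alone, with the Xist term and with pBIC 2 and pBIC 5 left out (adjusted p reaching 0.123). Calls in pBIC against YC were lost without YC 2 for Ero1l, without any 1 YC library for Txndc11 and without YC 2, YC 3 or pBIC 2 for Erp44 (edgeR adjusted p reaching 0.0527, 0.086 and 0.157). Erp44 was also lost with the Xist term (adjusted p = 0.062). The Ppib call was lost without YC 1 or YC 2 (edgeR adjusted p reaching 0.0589). That of Ube2j2 was lost without YC 2 or YC 3 (edgeR adjusted p reaching 0.0923) and with no filter on low counts (adjusted p = 0.113). The Herpud2 call was lost without any 1 YC library, BIC 1, BIC 2, pBIC 2, pBIC 3 or pBIC 5 (edgeR adjusted p reaching 0.212) and with no filter on low counts, with the compared groups alone, with the Xist term and with pBIC 2 and pBIC 5 left out (adjusted p reaching 0.117). Against BIC the Fkbp11 call was lost without any 1 YC or BIC library or pBIC 4 (edgeR adjusted p reaching 0.133) and with no filter on low counts, with the compared groups alone, with the Xist term and with limma-voom (adjusted p reaching 0.151).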
